A study of Mus musculus with 6 samples.

Results

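The enzymes that make and break down retinoic acid were followed through 6 RNA-seq libraries of Hepa1-6, a mouse hepatoma line derived from a C57/L tumor. The 10 genes were picked by name, for their place in the pathway, out of 25078 genes in the deposited tables, and they are Rdh10, Rdh11, Dhrs3, Lrat, Aldh1a1, Aldh1a2, Aldh1a3, Aldh1a7, Cyp26a1 and Cyp26b1. All cells were grown in the same serum-containing medium, with no retinoid treatment named. The wt library (n = 1) came from untreated parental cells. The scr libraries (25-2 and 50-1, n = 2) came from cells transduced with a scramble vector, and the knockdown libraries (25-3, 50-2 and 50-5, n = 3) from cells transduced with a midnolin shRNA vector. Transduced cells were selected with puromycin, and the study isolated single-cell-derived colonies by limiting dilution, so a library may stand for 1 clone. The labels do not say which clone each library is or what 25 and 50 mean, and an effect of the knockdown cannot be told apart from differences between clones.

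Vitamin A circulates and enters cells as retinol. Retinol dehydrogenases such as RDH10 oxidize it to retinal, DHRS3 and RDH11 act mainly in the opposite direction as retinal reductases, and LRAT esterifies retinol for storage, in the liver mostly in stellate cells. The retinal dehydrogenases ALDH1A1, ALDH1A2 and ALDH1A3 oxidize retinal to retinoic acid, a step that is not reversed, and the CYP26 enzymes hydroxylate retinoic acid for removal. Retinoic acid acts through RAR and RXR receptors on DNA, and Cyp26a1 is among its best known targets.

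A pair of sequence features of these genes is shown before their values. The first is the retinoic acid response element, a direct repeat of a unit of 6 bases. The unit was searched as any of AGGTCA or AGTTCA or GGGTCA or GGTTCA, with 1, 2 or 5 bases between the repeats, on both strands, in RefSeq promoter windows of GRCm38.p6 that run from 250 bases before to 50 after a gene's start. Of the 10 genes, 8 had 12 such windows in all, and 1 window held a repeat, that of Cyp26a1, with a spacing of 5. Among all 32851 windows, 0.0974% held a repeat with that spacing and 0.588% held any of the 3 spacings. The stretch is shown because it marks the enzyme gene most directly tied to retinoic acid, which was nearly silent here. Capitals mark the repeated units, which lie on the reverse strand of the printed sequence (chr19:37697716-37697807, plus strand, ending at the base before the annotated start).
Cyp26a1 promoter: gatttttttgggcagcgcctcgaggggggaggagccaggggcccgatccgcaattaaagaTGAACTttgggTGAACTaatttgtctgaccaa

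The second is the likeness of Aldh1a1 and Aldh1a7, which are neighbors on chromosome 19. In the GENCODE transcripts of GRCm38, their coding sequences have the same length of 1503 bases and differ at 126 positions, an identity of 91.6%. Of all windows of 50 bases in the Aldh1a7 transcript, 7.49% also occur in the Aldh1a1 transcript. The longest stretch they share is 100 bases of coding sequence, and it joins 2 exons in each gene (between bases 20629063 and 20630671 of chromosome 19 in Aldh1a1 and between 20708329 and 20709491 in Aldh1a7). It is shown because a read from within it cannot be assigned to either gene.
Aldh1a1 and Aldh1a7: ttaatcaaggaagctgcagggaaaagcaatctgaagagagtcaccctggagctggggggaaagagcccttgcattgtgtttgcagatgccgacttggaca
For contrast, the 90 coding bases that differ most between them (coding positions 310 to 399) are printed with the 19 differing bases in capitals. Reads from such stretches tell the copies apart.
Aldh1a1: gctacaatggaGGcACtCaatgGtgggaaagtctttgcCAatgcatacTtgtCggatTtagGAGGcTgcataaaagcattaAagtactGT
Aldh1a7: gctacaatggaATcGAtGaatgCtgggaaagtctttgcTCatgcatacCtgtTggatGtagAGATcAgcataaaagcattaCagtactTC

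Levels are given as deposited in RPKM, reads scaled to exon length and to library size after TMM normalization. Between 25586301 and 33119710 reads were counted per library. Midn, the targeted gene, had an RPKM of 59.6 and 50.8 in the scr libraries, 60.5 in wt, and 20.3 to 22.1 in the knockdown libraries, a log2 fold change of -1.38 ± 0.133 (SE, FDR 0.00777). The knockdown libraries were compared with the scr libraries by the edgeR quasi-likelihood test on 11577 genes, those whose RPKM passed 1 in any of the 5 libraries, and every FDR below is from this test with Benjamini-Hochberg adjustment over all 11577 unless another is named. A gene was called at an FDR under 0.05 and a fold change of at least 1.5. Of the hepatoma's own markers, Alb was present in every library, and the summed RPKM of 7 hepatocyte markers was 2347 and 3810 in scr, 4320 in wt, and 713, 252 and 95.6 in knockdown 25-3, 50-2 and 50-5. Alb, the larger part of the sum in scr, was not called (FDR 0.0712). Of 5 cholangiocyte markers, 3 were tested and 1 was called, Krt7, a keratin, with an RPKM of 21.3 and 13.9 in scr, 30.6 in wt and 0.858, 1.89 and 2.15 in knockdown (log2 fold change -3.44, FDR 0.0133). The other cholangiocyte markers did not all go with Krt7, since Epcam and Sox9 had log2 fold changes of -0.12 and 0.46 and were not called, and the summed RPKM of the 5 overlapped, at 57.2 and 35.5 in scr and 37.3, 50.5 and 34.4 in knockdown. The summed RPKM of 5 leukocyte markers was 3.02 and 4.63 in scr, 3.54 in wt, and 6.31, 6.95 and 9.37 in knockdown. Only Cd68 of them was tested, and it was not called (log2 fold change 0.97, FDR 0.0989). The hepatocyte sum and Krt7 were lower in the same 3 libraries as Aldh1a1 and Rdh11. The leukocyte sum was higher there, and the part of these markers in those results was not tested. The hepatocyte markers did not all go with their sum. Apob had an RPKM of 3.00 and 1.07 in scr and 52.2, 37.8 and 4.37 in knockdown, without overlap, and was not called (log2 fold change 3.93, FDR 0.0822). Hnf4a had 33.9 and 11.0 in scr and 65.5, 65.4 and 29.6 in knockdown and was not called (FDR 0.206). Of the 7 markers, Serpina1a had 0 counts in every library. In bulk RNA, fewer cells of a kind and less RNA per cell cannot be told apart.

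Of the 10 enzymes, 5 passed the filter on low values and 5 did not. Of the 5 tested, 2 fell and were called, Aldh1a1 and Rdh11, and none was called higher, though Rdh10 had the greatest fold difference of these 5. Across all genes tested, 10.6% were called in either direction and 5.23% were called lower. In 3 of the 5 tested enzymes (Aldh1a1, Rdh10 and Rdh11) the RPKM of the knockdown and scr libraries did not overlap, which was so for 50.2% of all genes tested. The share without overlap was thus near that of genes at large. The median log2 fold change was -0.91 over the 5 tested enzymes and -0.0097 over all genes tested.

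**Figure D1:**
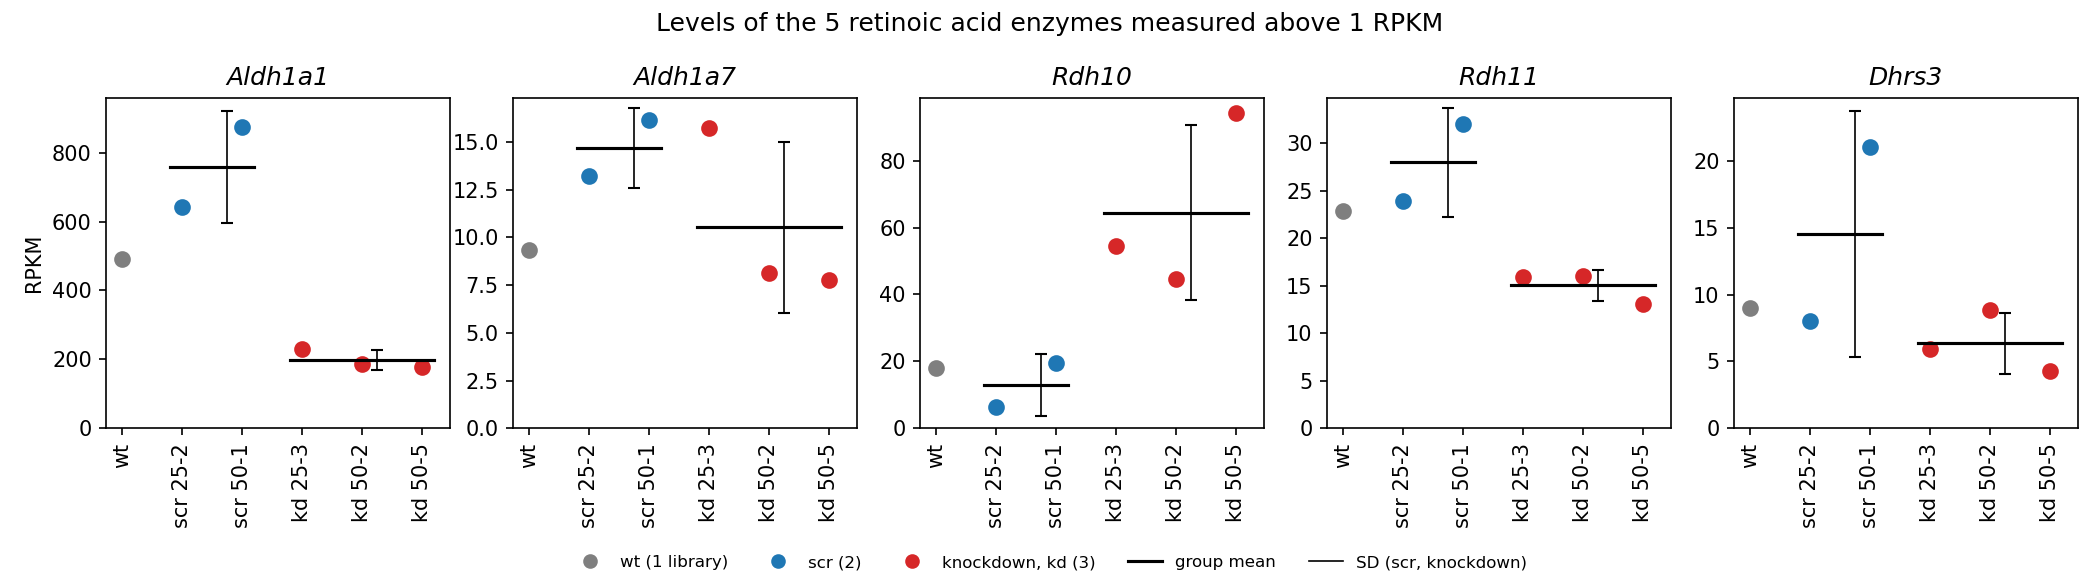
RPKM (y axis, linear from 0) of Aldh1a1, Aldh1a7, Rdh10, Rdh11 and Dhrs3 in each of the 6 libraries (x axis), with points for libraries, thick lines for group means and thin bars for the SD (scr n = 2, knockdown n = 3). The 3 knockdown libraries lie below both scr libraries for Aldh1a1 and Rdh11 and above both for Rdh10, and the groups overlap for Aldh1a7 and Dhrs3.

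Oxidation of retinol to retinal is the step that limits retinoic acid formation in many tissues. Rdh10 (chromosome 1 of mm10, 16105882 to 16132550, plus strand), the main retinol dehydrogenase of the embryo, had an RPKM of 6.48 in scr 25-2, 19.5 in scr 50-1 and 18.0 in wt, against 54.5, 44.7 and 94.2 in knockdown 25-3, 50-2 and 50-5. All knockdown libraries were above all others, but the scr libraries were far apart, and wt was beside the higher of them. The mean was 13.0 ± 9.19 (SD, n = 2) in scr and 64.5 ± 26.2 (SD, n = 3) in knockdown. The log2 fold change of 2.31 ± 0.579 (SE, 95% interval 0.88 to 3.74) missed the threshold at an FDR of 0.0591. Without scr 25-2 the value was 1.73 (FDR 0.0602), and without scr 50-1 it was 3.30 (FDR 0.0241). Rdh10 was called in 4 of 13 alternatives, among them DESeq2 (adjusted p 8.43e-05) and the edgeR fit with wt added to the controls (log2 fold change 2.14, FDR 0.0253), and the FDR ranged up to 0.142.

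The opposite direction, retinal to retinol, is the work of Rdh11 and Dhrs3. Rdh11 (chromosome 12, 79174233 to 79191855, minus strand) had an RPKM of 23.9 and 32.1 in scr 25-2 and 50-1, 22.8 in wt, and 16.0, 16.0 and 13.1 in knockdown 25-3, 50-2 and 50-5. It was thus lower in every knockdown library than in any other, and the 3 lay close together. Rdh11 fell 1.88-fold, with a log2 fold change of -0.91 ± 0.175 (SE, FDR 0.0328). Its call was lost when any knockdown library was left out (FDR 0.0995 without 50-5, 0.125 without 50-2 and 0.107 without 25-3), without scr 50-1 (log2 fold change -0.68, FDR 0.0648), with the 25 or 50 of the labels as a term (log2 fold change -0.92, FDR 0.0590), and by limma on log2(RPKM + 0.1) (FDR 0.0600).

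Dhrs3 (chromosome 4, 144892827 to 144928209, plus strand), a retinal reductase that retinoic acid is known to induce, stood at an RPKM of 8.02 in scr 25-2, 21.0 in scr 50-1 and 8.98 in wt, and at 5.94, 8.83 and 4.26 in knockdown 25-3, 50-2 and 50-5. Only scr 50-1 was high, and knockdown 50-2 was above scr 25-2. The log2 fold change was -1.21 ± 0.470 (SE, 95% interval -2.37 to -0.044) and was not called (FDR 0.148). Without scr 25-2 it was -1.73 and called (FDR 0.0328), and without scr 50-1 it was -0.35 (FDR 0.588).

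Because Rdh10 and Dhrs3 catalyze opposite directions of a step, their RPKM ratio was taken within each library, a measure chosen after the values were seen and therefore not tested. Rdh10 over Dhrs3 was 0.809 and 0.927 in scr 25-2 and 50-1, 2.01 in wt, and 9.19, 5.06 and 22.1 in knockdown 25-3, 50-2 and 50-5. The scr libraries, which differed in the level of each gene, were close in this ratio, since both genes were higher in scr 50-1. Rdh10 over Rdh11 was 0.271, 0.608 and 0.790 in scr 25-2, scr 50-1 and wt, and between 2.78 and 7.17 in the knockdown libraries. The order of levels changed with it. Rdh11 stood next below Aldh1a1 in wt and both scr libraries, while Rdh10 held that place in all 3 knockdown libraries.

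**Figure D2:**
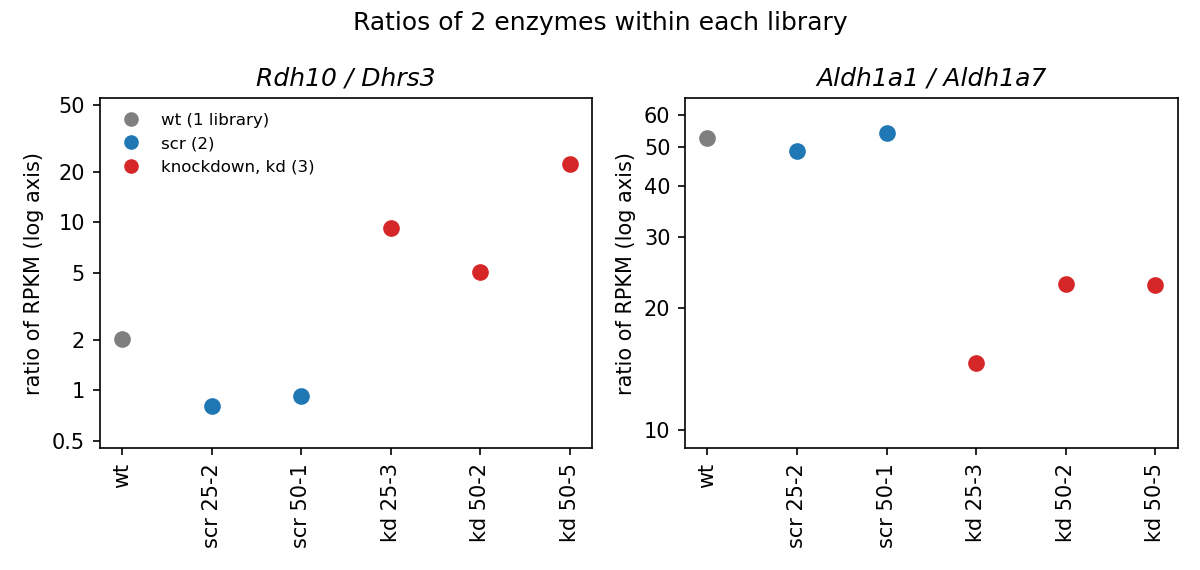
Ratio of the RPKM of Rdh10 to Dhrs3 (left) and of Aldh1a1 to Aldh1a7 (right) in each of the 6 libraries (x axis), on log y axes with 1 point a library. The left ratio is between 5.06 and 22.1 in the 3 knockdown libraries and at most 2.01 in scr and wt, and the right ratio is at most 23.0 in knockdown and at least 48.7 in scr and wt.

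Aldh1a1 (chromosome 19, 20492583 to 20643463, plus strand) oxidizes retinal to retinoic acid and was the most abundant of the 10 enzymes in every library. Its RPKM was 643 and 873 in scr 25-2 and 50-1, 491 in wt, and 230.0, 187 and 177 in knockdown 25-3, 50-2 and 50-5. The groups did not overlap, and wt lay between them, nearer scr. Among all 25078 genes Aldh1a1 ranked 33 and 21 by RPKM in the scr libraries, 61 in wt, and 139, 190 and 188 in the knockdown libraries. Aldh1a1 fell 3.86-fold, with a log2 fold change of -1.95 ± 0.193 (SE, 95% interval -2.43 to -1.47, FDR 0.00777). The call held in 13 of 14 alternatives and was lost without knockdown 50-2 (log2 fold change -1.90, FDR 0.0548). Even in the knockdown libraries its RPKM was above that of every other enzyme of the group.

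Aldh1a7 (chromosome 19, 20692953 to 20727556, minus strand), the close copy that lies downstream of Aldh1a1 on the opposite strand, had an RPKM of 13.2 and 16.2 in scr 25-2 and 50-1, 9.33 in wt, and 15.7, 8.16 and 7.76 in knockdown 25-3, 50-2 and 50-5. Knockdown 25-3 was at the level of scr and the other knockdown libraries were below it, next to wt. The log2 fold change was -0.49 ± 0.345 (SE, 95% interval -1.34 to 0.36) and was not called (FDR 0.379). Without knockdown 25-3 it was -0.90 (FDR 0.105). Aldh1a1 over Aldh1a7 was 48.7 and 54.1 in scr and 52.7 in wt, against 14.6, 23.0 and 22.8 in knockdown 25-3, 50-2 and 50-5. How many reads of one copy were counted for the other was not tested. Likeness of sequence and RNA level do not show whether Aldh1a7 acts on retinal. With the counts of both genes summed, the log2 fold change was -1.92 ± 0.197 (SE, FDR 0.00821).

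In the coordinates of the deposited table, Aldh1a1 also contains E030003E18Rik (chromosome 19, 20492715 to 20556410), a gene on the same strand that lies at its 5′ end. It had 1 read in wt, 2 in each scr library, and 60, 92 and 111 in knockdown 25-3, 50-2 and 50-5. These counts were singled out after they were seen, and they moved against those of Aldh1a1. The share of reads, pooled over libraries, was 39.3 times as high in knockdown as in scr (95% counting interval 15.2 to 145, counting error only), and the gene was called (FDR 0.00777). It was also called in 13 of 14 alternatives, the exception being the fit without knockdown 50-2 (FDR 0.0505). The gene passed the filter on low values only through the knockdown libraries. Its RPKM was 1.75, 2.62 and 3.09 there, and 0.0626 and 0.0647 in scr. Its calls are therefore no separate support for the difference seen in the counts. Of the 5 tested genes within 1 Mb of Aldh1a1, only E030003E18Rik was called, and the other 4 had log2 fold changes between -0.68 and 0.60. How reads over both genes were counted is not stated, so the counts of the overlapping gene are uncertain.

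**Figure D3:**
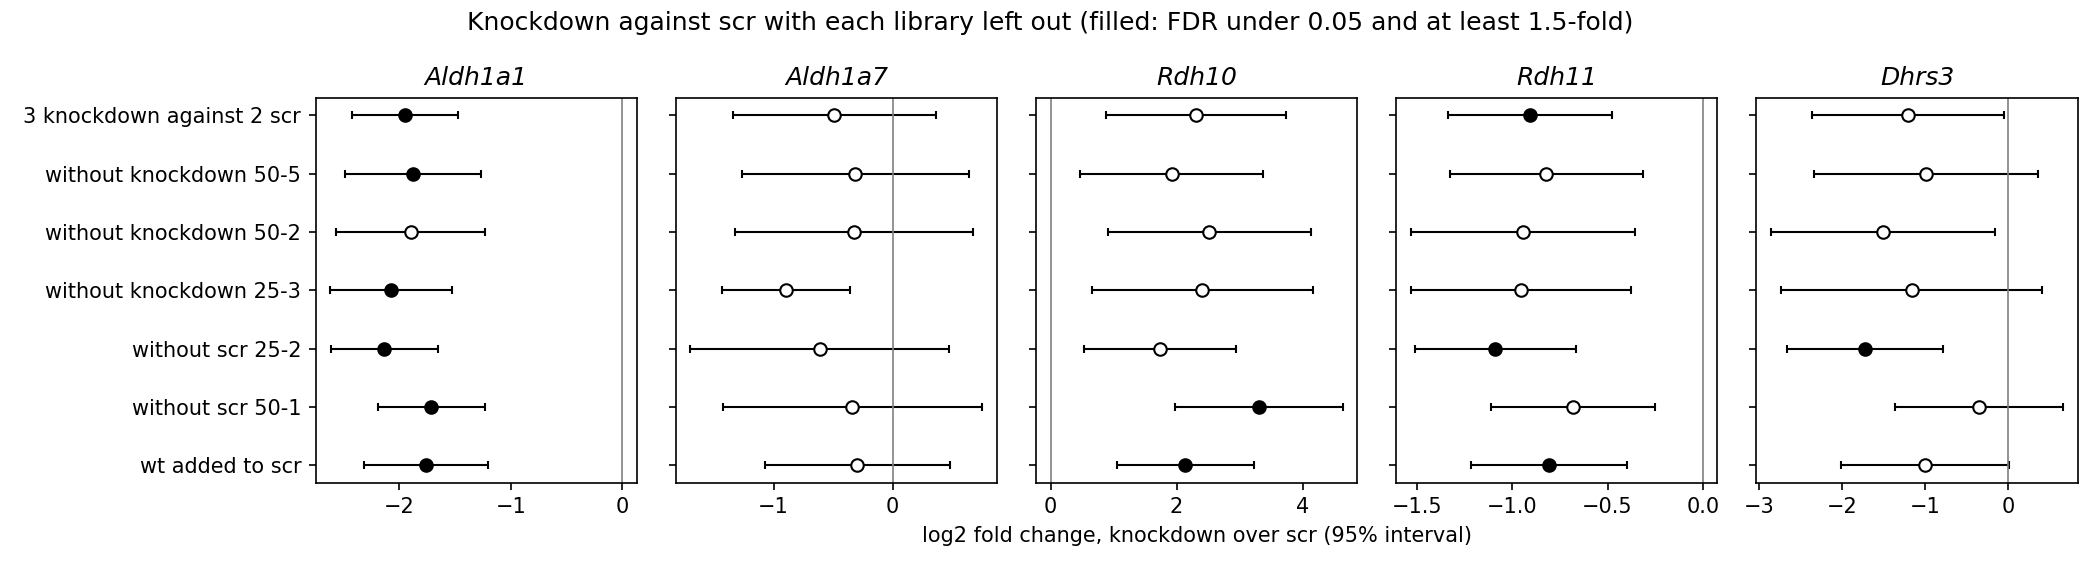
Log2 fold change of knockdown over scr (x axis, with the 95% interval) for the 5 tested enzymes in the fit of 3 knockdown against 2 scr libraries, with each library left out in turn, and with wt added to scr (y axis), where filled points are called. Aldh1a1 lies between -2.14 and -1.71 in every fit shown, Rdh10 between 1.73 and 3.30 and Dhrs3 between -1.73 and -0.35.

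The other 5 enzymes stayed under the filter, with between 0 and 6 reads in every scr and knockdown library. Aldh1a2 (chromosome 9, 71215789 to 71296243), the main retinal dehydrogenase of the early embryo, had 1 and 2 reads in scr, 4, 2 and 3 in knockdown, and 62 in wt, an RPKM of 1.05 in wt (95% Poisson interval 0.805 to 1.35, counting error only). The scr and knockdown libraries were all close to 0, and only wt held more. Aldh1a3 (chromosome 7, 66390893 to 66427477), another retinal dehydrogenase, had 5 and 1 reads in scr, 2, 2 and 6 in knockdown and 2 in wt, which overlap.

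Lrat and the CYP26 genes were at or near the limit of detection. Lrat (chromosome 3, 82892582 to 82903974) had 0 reads in wt, scr 25-2, knockdown 25-3 and knockdown 50-5, and 1 in scr 50-1 and knockdown 50-2. By the 95% Poisson interval, a count of 0 allows up to 3.69 reads (counting error only). For Lrat, 3 reads correspond to an RPKM of at most 0.0215 in these libraries. Cyp26a1 (chromosome 19, 37697808 to 37701536) had 4 and 0 reads in scr, 1, 3 and 0 in knockdown and 2 in wt, so its level was not told apart from 0 in 2 libraries and the groups overlap. Cyp26b1 (chromosome 6, 84571414 to 84593908) had 3 and 5 reads in scr, 0, 0 and 1 in knockdown and 3 in wt. The counts of Cyp26b1 did not overlap between scr and knockdown, and all lie at an RPKM of at most 0.0362. With the filter on low values dropped, Cyp26b1 had an unadjusted p of 0.0273 in the edgeR test and was not called (FDR 0.147). Cyp26c1, the remaining gene of the family, had 3 and 4 reads in scr, 1, 1 and 2 in knockdown and 0 in wt. Its groups did not overlap either. Overlap was absent for 50.2% of all genes tested, a set that passed the filter on low values and holds neither Cyp26b1 nor Cyp26c1. That share is therefore no measure for genes this low, and at these counts nothing is read from Cyp26c1. The defining markers of stellate cells, where Lrat is best known, were low as well, with 0 of 8 over an RPKM of 1 in scr and knockdown and a summed RPKM of 0.158 and 0.935 in scr and 0.284 to 1.15 in knockdown.

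**Figure D4:**
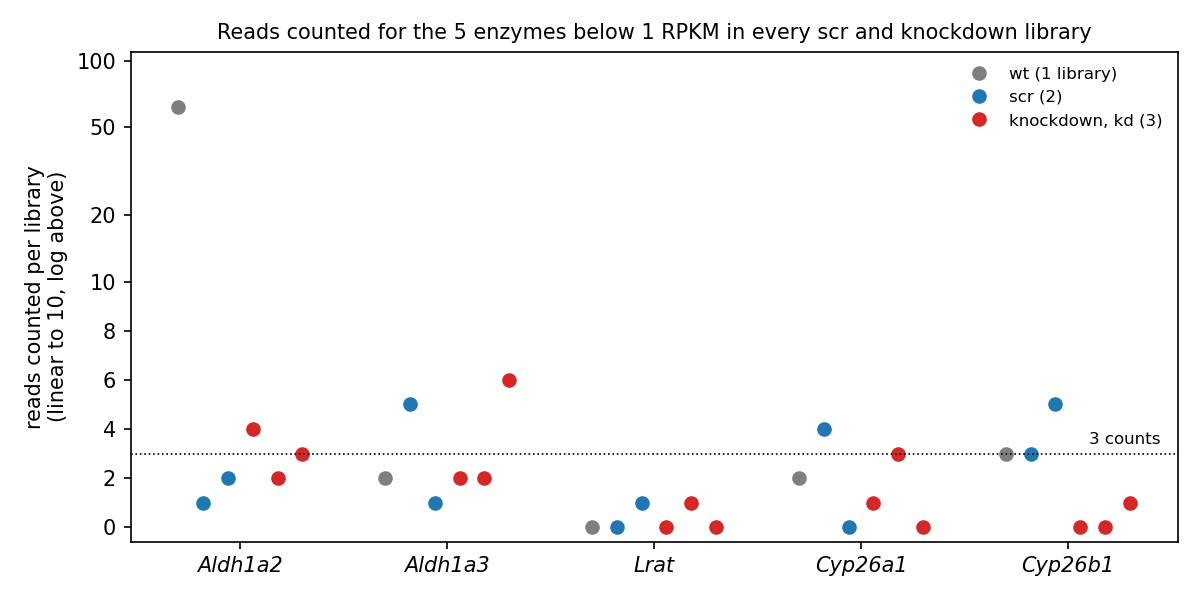
Reads counted for Aldh1a2, Aldh1a3, Lrat, Cyp26a1 and Cyp26b1 (x axis) in each of the 6 libraries, with 1 point a library on a y axis that is linear to 10 and logarithmic above. The dotted line marks 3 reads, and only the 62 reads of Aldh1a2 in wt stand above 6.

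Other genes of the pathway were read from the same fit, from a list of 63 genes in the table of which 34 were tested. Of these, 4 were called higher and 4 lower, where 10.6% of all genes tested were called in either direction. Their median log2 fold change was -0.12. The list was written with results of these data known, so its counts are not read as a result about the pathway. Of 10 other retinol and retinal oxidoreductases tested, 1 was called, Adh7, an alcohol dehydrogenase that oxidizes retinol. Adh7 had an RPKM of 0.0490 and 0.118 in scr, 0.203 in wt, and 6.12, 5.73 and 4.84 in knockdown 25-3, 50-2 and 50-5, so all knockdown libraries lay far above the rest. It rose by 6.02 on the log2 scale (SE 0.437, FDR 0.00508), from 3 and 7 reads in scr, and was called in 13 of 13 alternatives, with values from 2.59 to 6.76, so its size is uncertain. Adh7 passed the filter on low values only through the knockdown libraries, where it was high, so its calls are no separate support. Adh5, an alcohol dehydrogenase found in most tissues, had a log2 fold change of -0.31 and was not called (FDR 0.329). Aox1, an aldehyde oxidase that can also oxidize retinal, was at an RPKM of 9.04 and 23.1 in scr and of 3.18, 4.49 and 7.46 in knockdown, with a log2 fold change of -1.68 that was not called (FDR 0.0837). Of the 4 listed oxidases other than Cyp26a1 and Cyp26b1, only Cyp4v3 was tested, and it fell (log2 fold change -1.39, SE 0.235, FDR 0.0240). Its call was lost without knockdown 50-2 or 50-5 (highest FDR 0.113).

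Among 5 tested genes of uptake, transport and binding, 2 were called higher and 1 lower, against 10.6% of all genes tested called in either direction. Stra6, the retinol channel, rose by 2.09 on the log2 scale (SE 0.256, FDR 0.0117), and Rbp2 by 5.94 ± 0.927 (SE, FDR 0.0195), the latter from 5 and 0 reads in scr and with its call lost when any knockdown library was left out (highest FDR 0.0892). The value for Rbp2 ran from 3.03 to 10.5 over the alternatives, so its size is uncertain. Rbp2, like Adh7, passed the filter on low values only through the knockdown libraries. Ttr, the plasma carrier, fell by 6.68 on the log2 scale (SE 0.828, FDR 0.0121). The study picked out Aldh1a1, Ttr, Stra6 and Lpl from these samples, so their calls are not independent evidence of a direction. The study also measured these genes by RT-qPCR in a knockdown clone against scr cells, with values not compared here. Without knockdown 50-2, the calls of Stra6, Ttr, Lpl and Pdk4 were lost, at FDRs from 0.0509 to 0.0780.

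Of 4 tested RAR and RXR receptor genes, 0 were called by the edgeR test, 0 had an unadjusted p under 0.05 and 0 were called by DESeq2. Over all genes tested, these shares were 10.6%, 31.5% and 20.1%. The log2 fold changes of the receptors were between -0.20 and 0.30. Of 5 tested genes of ester formation and hydrolysis, 1 was called, Lpl, a lipase that can also split retinyl esters, which fell by 2.89 on the log2 scale (SE 0.292, FDR 0.00777). Dgat1, which makes retinyl esters where LRAT is absent, reached an RPKM of 5.48 and 8.46 in scr, against 10.8, 11.0 and 9.88 in knockdown, and was not called (log2 fold change 0.59, FDR 0.152).

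Of 10 tested genes known as targets of retinoic acid, 2 were called higher (Stra6 and Pdk4) and 1 lower (Tgm2), while 7 had an unadjusted p under 0.05 and 6 were called by DESeq2. Over all genes tested, 10.6% were called by the edgeR test, 31.5% had an unadjusted p under 0.05 and 20.1% were called by DESeq2. Nothing particular to the targets is read from these counts. Pdk4, a kinase that restrains pyruvate oxidation, rose by 3.62 on the log2 scale (SE 0.409, FDR 0.0101, from 2.18 to 4.35 over the alternatives), and Tgm2, a transglutaminase, fell by 1.38 on the same scale (SE 0.144, FDR 0.00860). Of the compared libraries, only those of knockdown carried Pdk4 through the filter on low values.

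**Figure D5:**
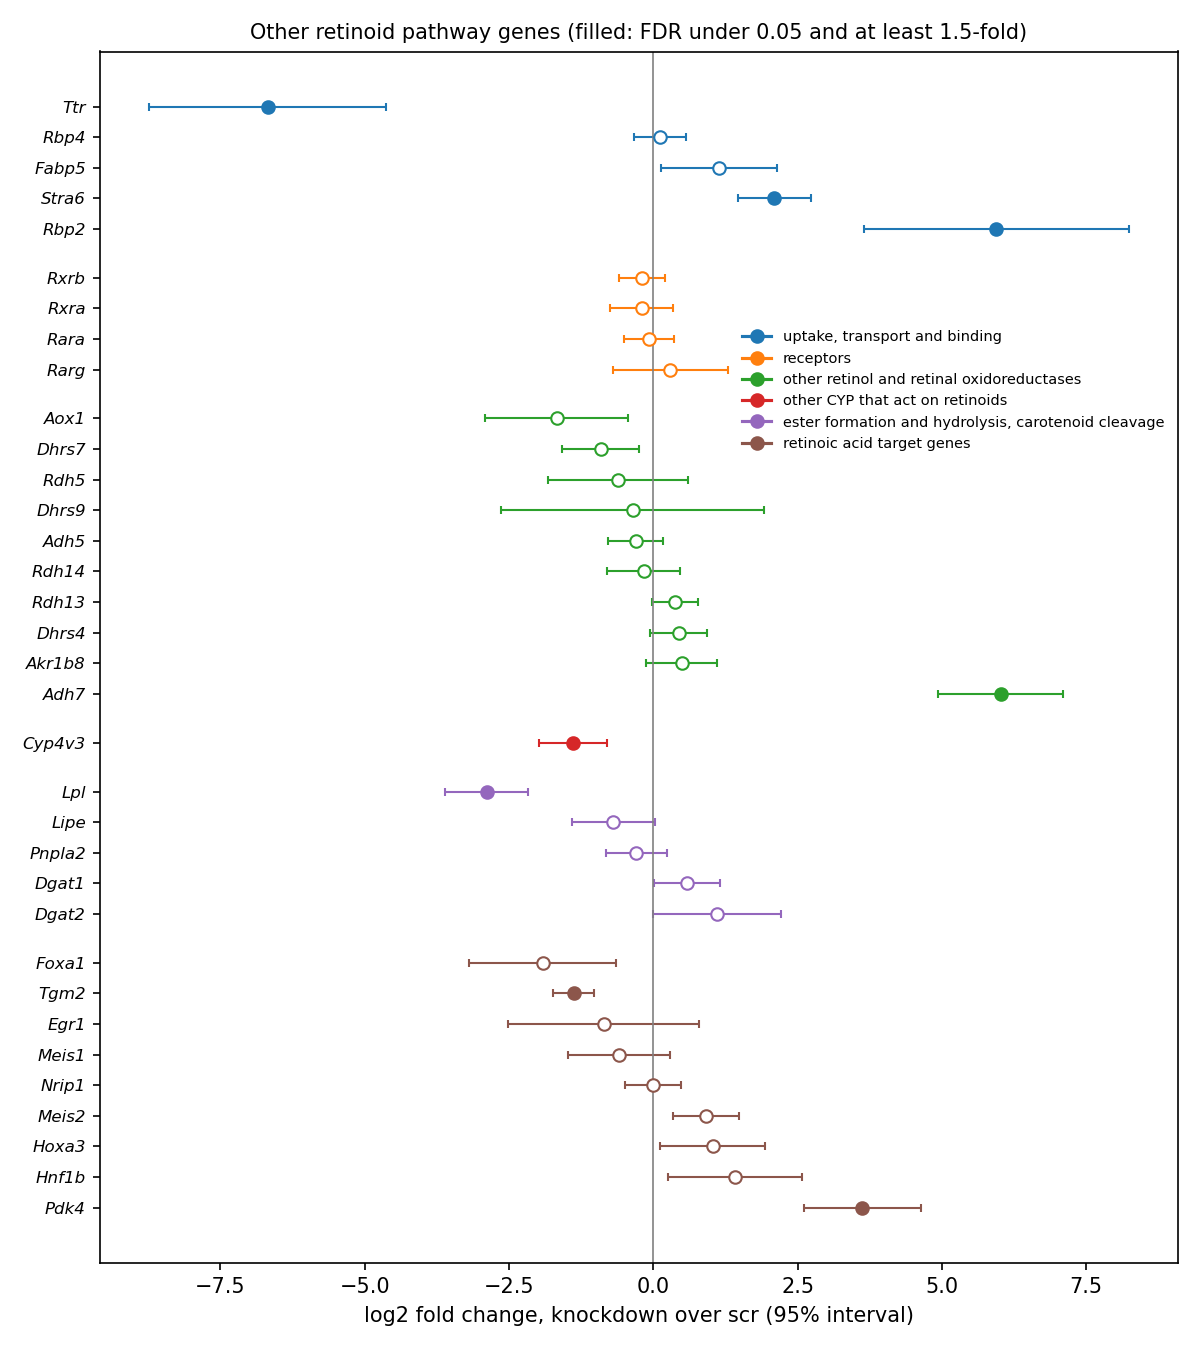
Log2 fold change of knockdown over scr (x axis, with the 95% interval) for the 34 tested genes of the retinoid pathway list (y axis), colored by group, where filled points are called and a gene in more than 1 group is drawn once. Adh7, Rbp2, Stra6 and Pdk4 lie to the right and Ttr, Lpl, Cyp4v3 and Tgm2 to the left, while the 4 receptors lie near 0.

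Over the 6 libraries, the tested genes whose centered log2(RPKM + 0.1) profile lay closest to that of Aldh1a1 were Lncpint, Tbc1d2b and Mrps6, at Euclidean distances of 0.303, 0.337 and 0.382. All 3 had lower RPKM in the knockdown libraries, such as Mrps6 with 199 and 236 in scr, 109 in wt, and 59.5, 54.2 and 43.0 in knockdown. For Rdh10 the nearest were Krt33b and A330074K22Rik, at distances of 0.367 and 0.370. Krt33b and A330074K22Rik had an RPKM of at most 1.09 and 4.87, and neither was called (FDR 0.156 and 0.107). These profiles share the same 6 libraries, and their likeness is a description.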

How the data were processed

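Per the labels, RNA was depleted of ribosomal RNA and libraries were made with the KAPA RNA HyperPrep kit. TopHat2 was used by the authors for alignment to mm10 and HTSeq for counting in RefSeq genes, and the deposited counts are not normalized. The summed exon length per gene is also deposited. The strand setting is not stated, so overlapping and antisense genes are uncertain. The authors computed the deposited RPKM values with TMM-scaled library sizes from edgeR. Each library column was matched by name.

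Counts of 3 knockdown and 2 scr libraries were compared with edgeR 4.0.16 in R 4.3.3 (quasi-likelihood test, TMM), as the labels group them, since they do not name the clones the study used. The gene list of the study covers 4 of these libraries, and the fit without knockdown 50-5 matches that set. Standard errors are the absolute log2 fold change over the square root of F. Replicates exceeded sampling noise (chi-square per degree of freedom of at least 45.0). Whether libraries are separate cultures is not stated, so p-values measure the spread between these libraries. Limma 3.58.1 on log2(RPKM + 0.1 or 1), DESeq2 1.42.0, and other filters, scalings and libraries were alternatives. The members and lists were chosen with earlier results of these data known. Named were all members, called pathway genes, and the 3 profiles nearest Aldh1a1 and the tested member with the largest fold difference, with others only beside a member. Some genes that this rule names are not reported here and were left out of the pathway list's counts. Figures used matplotlib 3.10.9.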

Additional observations from a re-analysis of the deposited data

Results flagged for a closer look

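Aldh1a2 had 62 reads in the wt library (95% Poisson interval 47.5 to 79.5), which is outside the comparison of knockdown with scr, against 1 and 2 in the scr libraries. With wt added to the controls, Aldh1a2 passed the filter only through that wt library. It was not called by the edgeR test (log2 fold change -3.07, FDR 0.197). That fold change rests on the same 62 reads and is no separate result. Of 8 stellate cell and 5 endothelial markers, 2 passed an RPKM of 1 in wt, the endothelial Pecam1, with an RPKM of 2.85 against 0.163 and 0.158, and the stellate cell marker Des, with 1.59 against 0.0111 and 0.790. The other 11 had between 0 and 5 reads in wt, with 5 of Kdr, 3 of Pdgfrb and 1 of Stab2 (0 to 1 in scr), 5 of Reln (9 in each scr library), and 0 of Hand2, Ngfr, Lhx2, Cdh5 and Lyve1. The part of either cell type in the Aldh1a2 count was not tested, and with 1 wt library there is no replicate check.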

How the results depend on the processing

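Aldh1a1, Aldh1a7, Rdh10, Rdh11 and Dhrs3 kept their direction in every alternative. In the fit of all 5 libraries, 2 enzymes, 8 other pathway genes and 1230 genes in all were called. DESeq2 called 14 pathway genes and 2322 genes. Limma called 1 enzyme and 969 genes in all on log2(RPKM + 0.1), and 3 enzymes and 1171 genes in all on log2(RPKM + 1). With the 25 or 50 of the labels as a term, 1 enzyme and 807 genes were called. With each library left out in turn the counts ran from 0 to 3 enzymes, from 2 to 13 pathway genes and from 131 to 2273 genes. Without knockdown 50-2, edgeR called 0 enzymes, while 4 of 5 had an unadjusted p under 0.05, as did 21.5% of all genes tested there, and DESeq2 was not run there. Without knockdown 50-5, of the enzymes only Aldh1a1 was called, among 346 genes called in all. Leaving out a scr library leaves 1, which is then assumed to vary like the knockdown libraries. Counts of 6 or fewer in each scr and knockdown library limit any statement on the 5 enzymes that were not tested.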
